A study of Mus musculus with 9 samples.

Results

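Mitochondrial fatty acid oxidation and ketogenesis were followed through 9 genes of the pathway: Cpt1a, Cpt2, Acads, Acadm, Acadl, Acadvl, Hadha, Hadhb and Bdh1. The genes were taken by symbol from a table of 24532 genes, all 9 were found, and all 9 passed the filter on low counts that left 14731 genes for testing. The data came from poly(A) RNA of mouse liver, sequenced from both ends as strand-marked libraries, in 9 libraries of 3 groups with 3 each. Every animal was a wild-type C57BL/6 mouse that received thioacetamide (TAA), a hepatotoxin used to produce liver fibrosis, by intraperitoneal injection in rising doses, 2 times a week for 10 weeks. The control group, called TAA here (replicates 12, 13 and 14), was given saline. The other groups were also given recombinant human cytoglobin (rhCYGB), a globin protein, into the tail vein at 2 mg/kg, 2 times a week. It was given during the last 2 weeks of TAA in replicates 17, 18 and 19 (the 2-week group) and during the last 5 weeks in replicates 23, 27 and 28 (the 5-week group), and livers were taken 2 days after the last rhCYGB dose. Livers that never met TAA were not analysed here, so each comparison is between fibrotic-model livers. The labels do not say that each replicate number is a separate animal, so the p-values reflect only how these samples varied, which may in part be technical.

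Mitochondrial beta oxidation shortens fatty acids in repeated rounds, each of which releases acetyl-CoA. Long-chain fatty acids enter the matrix through the carnitine shuttle, in which CPT1A on the outer membrane makes acylcarnitine and is the controlled entry step in liver, and CPT2 on the inner membrane turns it back into acyl-CoA. The acyl-CoA dehydrogenases then open each round, with ACADVL acting on very long chains, ACADL and ACADM on long and medium chains, and ACADS on short chains. The trifunctional protein, built from HADHA and HADHB, carries out the later steps on long chains. In hepatocytes much of the acetyl-CoA goes into ketone bodies, and BDH1 interconverts acetoacetate and beta-hydroxybutyrate, the main circulating ketone body. The nuclear receptor PPAR alpha is the best known activator of these genes in fasted liver.

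The genes lie on 7 chromosomes of mm10. The shuttle genes are Cpt1a (gene ID 12894, chr19:3323301-3385733, plus strand) and Cpt2 (12896, chr4:107903982-107923589, minus strand). The dehydrogenase genes are Acads (11409, chr5:115110299-115119346), Acadm (11364, chr3:153922353-153944643), Acadl (11363, chr1:66830839-66863309) and Acadvl (11370, chr11:70010183-70015428), all on the minus strand. Bdh1 (71911) lies at chr16:31422297-31458901 on the plus strand. Hadha (97212, chr5:30118304-30154980, minus strand) and Hadhb (231086, chr5:30155253-30184593, plus strand) stand head to head, and 272 bases separate their starts. RefSeq places Cpt1a over 4622 bases of the long noncoding RNA Gm36532, Bdh1 over 1901 bases of the long noncoding RNA Gm15743, Acadl over 631 bases of the pseudogene Gm15793 and Hadha over 77 bases of its neighbour Garem2. How reads were assigned by strand is not given in the sources used here, so reads from such overlaps cannot be told apart from those of the members.

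The promoter sequences of 4 stretches are shown. They are those of Cpt1a, whose level separated the rhCYGB groups most widely, and of Acads and Acadvl, the members that passed the test. The last is the shared gap between Hadha and Hadhb, which stand head to head. Each is reference sequence from RefSeq on GRCm38.p6, 250 bases upstream of the start for the single genes and the whole gap for the pair, read 5′ to 3′ along the gene's strand (the plus strand for the gap). Capitals mark AGGTCA, the core recognition motif of many nuclear receptors, and GGGCGG, the GC box bound by Sp factors, on either strand.
Cpt1a upstream, chr19:3323051-3323300: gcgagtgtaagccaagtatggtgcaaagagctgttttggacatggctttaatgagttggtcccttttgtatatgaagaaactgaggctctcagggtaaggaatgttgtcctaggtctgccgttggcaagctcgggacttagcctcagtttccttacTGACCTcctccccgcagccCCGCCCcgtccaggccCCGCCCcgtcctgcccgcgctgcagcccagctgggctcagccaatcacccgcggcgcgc
Acads upstream, chr5:115119347-115119596: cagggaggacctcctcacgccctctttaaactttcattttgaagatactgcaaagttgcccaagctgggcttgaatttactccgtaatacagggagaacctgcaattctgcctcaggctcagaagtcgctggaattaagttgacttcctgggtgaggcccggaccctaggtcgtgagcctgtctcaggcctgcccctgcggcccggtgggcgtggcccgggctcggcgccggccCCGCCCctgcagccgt
Acadvl upstream, chr11:70015429-70015678: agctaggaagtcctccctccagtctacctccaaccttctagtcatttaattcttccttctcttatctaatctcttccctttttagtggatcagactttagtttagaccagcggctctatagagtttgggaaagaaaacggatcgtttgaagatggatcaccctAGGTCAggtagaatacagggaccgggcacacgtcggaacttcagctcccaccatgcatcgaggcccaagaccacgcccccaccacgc
Hadha-Hadhb gap, chr5:30154981-30155252: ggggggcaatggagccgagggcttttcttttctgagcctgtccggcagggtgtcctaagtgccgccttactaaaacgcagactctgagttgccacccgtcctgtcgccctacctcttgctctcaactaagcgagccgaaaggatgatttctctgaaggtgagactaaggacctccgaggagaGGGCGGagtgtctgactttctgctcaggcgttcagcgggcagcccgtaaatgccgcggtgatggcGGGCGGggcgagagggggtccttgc

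In these stretches Cpt1a held AGGTCA 94 bases before its start and GC boxes 75 and 59 bases before it, and Acadvl held AGGTCA 87 bases before its start. Acads held a GC box 16 bases before its start, and the gap held GC boxes 90 and 25 bases before the start of Hadhb. All 9 members were matched in a table of 32851 RefSeq promoters, each reaching from 250 bases before to 50 bases after a start. The 9 members had 10 promoters there. AGGTCA was present in 3 of the 10 (those of Cpt1a, Acadm and Acadvl) and in 16.3% of all promoters. GGGCGG was present in 7 of the 10, for 7 members, and in 35.7% of all promoters. The windows of Hadha and Hadhb overlap across their gap, so a GC box there can count for both genes. A PPAR response element, searched as a direct repeat of AGGTCA with any 1 base between the copies, was present in 0.0396% of all promoters and for 0 members. The same held for the cAMP response element TGACGTCA (1.79% of promoters), the ERR alpha element TCAAGGTCA (0.423%, which contains AGGTCA) and the NRF1 element, searched as GCGCA followed by its reverse complement (0.971%). Both strands were searched. These matches describe letters in a short window and are not evidence of binding.

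Each library held between 55655727 and 87289945 estimated reads (a 1.57-fold range), of which 7072 to 41123 fell on each member. Levels are given as CPM, reads scaled to a common library size, after TMM scaling, which sets libraries to a common scale by their shared genes. The TMM factors were 1.11 to 1.18 in the TAA libraries, 0.843 to 0.964 in the 2-week libraries and 0.916 to 1.04 in the 5-week libraries, so the TAA libraries lay apart from all others in scaling. With library totals as the only scaling, the median log2 change over all genes shifted by -0.33 for 2 weeks against TAA, -0.22 for 5 weeks against TAA and 0.11 between the rhCYGB groups, and values on library totals are given below where they change a sign, a call or an overlap of the members. On the first principal component (32.3% of the variance), replicate 23 stood at 78.8 and replicates 17 and 18 at -39.4 and -44.1. The log2 changes also followed transcript length across genes, with a Spearman's rho of -0.42 for 2 weeks against TAA, 0.05 for 5 weeks against TAA and 0.47 for 5 against 2 weeks.

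After 2 weeks of rhCYGB, Acads rose 1.56-fold and Acadvl 1.44-fold against TAA, and the other 7 members did not pass the test. The test was edgeR's quasi-likelihood F test with Benjamini-Hochberg adjustment over 14731 genes, and a gene was called at an adjusted p under 0.05. The call of 2 of 9 members stood beside 1.98% of all tested genes called higher, 1.34% called lower and 3.31% called in either direction. The 2-week libraries lay wholly above the TAA libraries for 4 of 9 members (Cpt2, Acads, Acadvl and Bdh1), beside 17.3% of all genes. Estimates were above 0 for 8 of 9 members, beside 47.1% of all genes, with a median log2 change of 0.21 against -0.03 for all genes, and Cpt1a alone was below 0. On library totals 3 of 9 estimates were above 0 (Cpt2, Acads and Acadvl), the members' median was -0.13 beside -0.36 for all genes, and edgeR called 0 of 9 members, where it called 11.7% of all genes in either direction. On that scale Acads and Acadvl were the 2 members whose groups did not overlap, beside 4.65% of all genes that lay wholly higher and 42.1% that lay wholly lower.

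After 5 weeks of rhCYGB, 0 of 9 members passed edgeR's quasi-likelihood test against TAA, where 1.29% of all genes were called in either direction and 0.686% were called higher. All 9 estimates were above 0, beside 51.4% of all genes, with a median log2 change of 0.37 against 0.01 for all genes on the TMM scale. They stayed above 0 on library totals, where the members' median was 0.14 beside -0.21 for all genes. At an unadjusted p under 0.05 there were 8 of 9 members, all higher, beside 9.59% of all genes, and 6 of 9 members lay wholly above TAA, beside 11.6%. On library totals 0 of 9 members lay wholly above TAA, beside 3.24% of all genes. DESeq2 called 1 member, Bdh1, where it called 4.15% of the genes it adjusted as higher. Both comparisons use the same 3 TAA libraries.

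Between the rhCYGB groups, 0 of 9 members passed edgeR's test for 5 against 2 weeks, where 0.0204% of all genes did. Estimates were above 0 for 6 of 9, beside 48.9% of all genes. Cpt1a and Bdh1 were wholly higher in the 5-week libraries (10.9% of all genes were), and Acads and Acadvl wholly lower (10.2% were), all on the TMM scale. On library totals Cpt1a, Bdh1 and Acads kept this order and Acadvl overlapped. The share of all genes that lay apart on that scale is not given here, so no background stands beside this count. Of 9 members, 3 had an unadjusted p under 0.05 (Cpt1a, Acads and Bdh1), beside 23.2% of all genes. DESeq2 called Cpt1a alone, where it called 5.95% of the genes it adjusted in either direction. Without replicate 27, edgeR called Cpt1a and Acads, in a fit that called 12.6% of all genes.

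**Figure D1:**
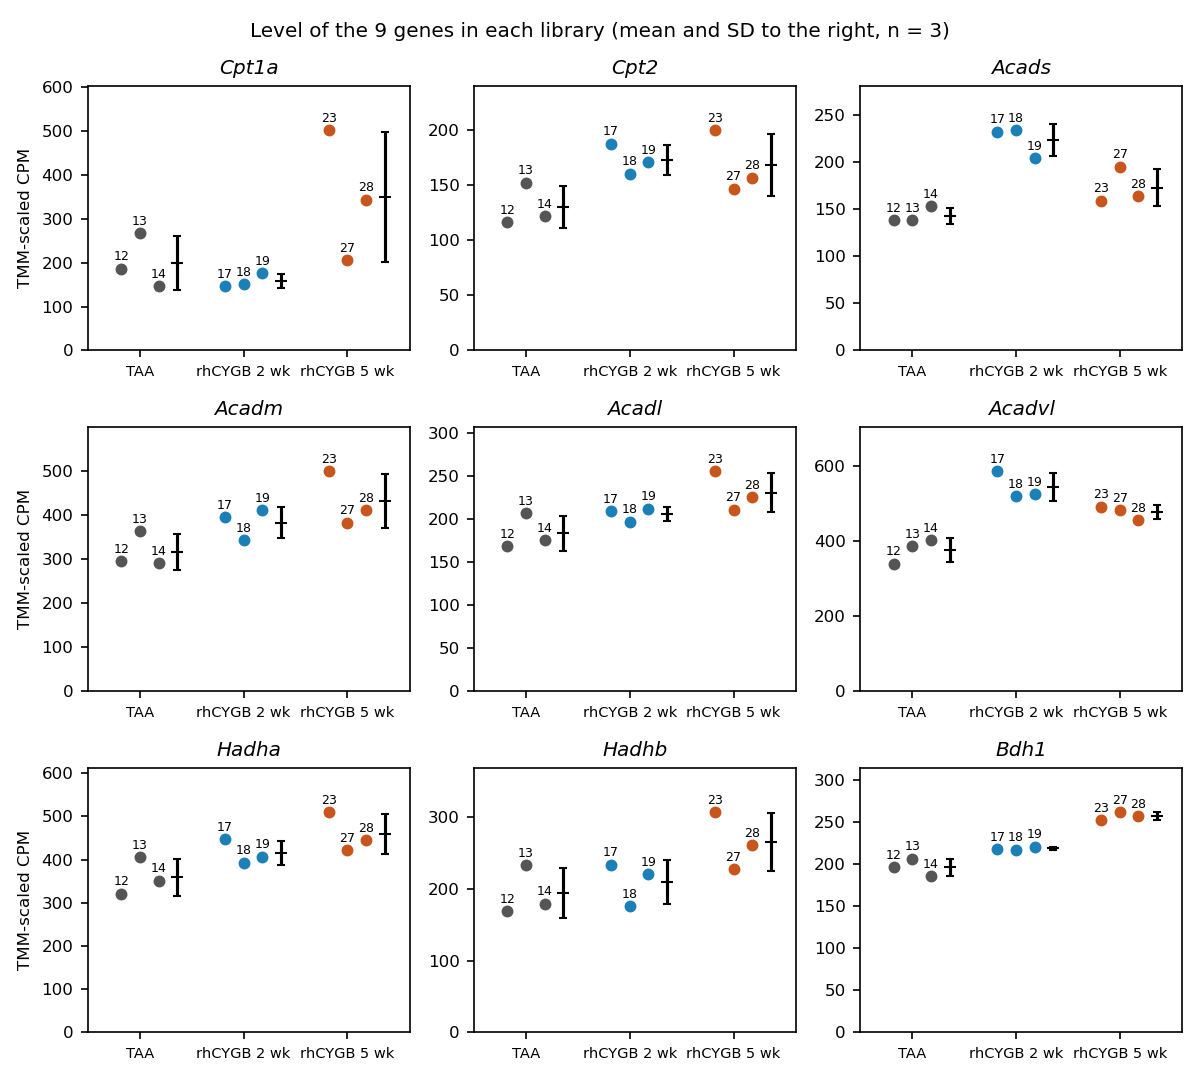
TMM-scaled CPM of each of the 9 genes in each library, with the replicate number above each point and the mean and SD of each group (n = 3) beside it. The 2-week libraries are highest for Acads (205 to 234 CPM) and Acadvl (521 to 587 CPM), and replicate 23 of the 5-week group is highest for Cpt1a (503 CPM). On library totals only Acads and Acadvl keep 2-week libraries wholly above TAA.

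Of the carnitine shuttle genes, Cpt1a was widely spread within TAA and at 5 weeks. It stood at 186, 268 and 147 CPM in TAA replicates 12, 13 and 14, at 146, 152 and 176 CPM in 2-week replicates 17, 18 and 19, and at 503, 206 and 344 CPM in 5-week replicates 23, 27 and 28. The 2-week libraries were low and close together, the 5-week libraries were far apart, and TAA overlapped both. The log2 change (± SE) was -0.34 ± 0.31 at 2 weeks (adjusted p = 0.512) and 0.81 ± 0.31 at 5 weeks (adjusted p = 0.193), both by edgeR against TAA. Between the rhCYGB groups the change was 1.15 ± 0.31, a 2.22-fold higher mean at 5 weeks that did not pass the test (edgeR, adjusted p = 0.158). The sizes depended on single libraries. The 5-week change against TAA was 0.45 without replicate 23 and 1.08 without replicate 27, and the 2-week change was -0.10 without replicate 13 and -0.53 without replicate 14. Between the rhCYGB groups the change was 0.80 without replicate 23 and 1.42 without replicate 27, where edgeR's adjusted p was 0.0410. Cpt1a followed the first principal component with r = 0.94 over the 9 libraries, and its transcript is long at 4301 bases. With the length trend removed, its change was -0.17 at 2 weeks and 0.95 between the rhCYGB groups.

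Cpt2, the inner-membrane partner, varied less. Its levels were 116, 152 and 122 CPM in TAA, 187, 160.1 and 170.4 CPM at 2 weeks and 199.6, 147 and 157 CPM at 5 weeks. On the TMM scale the 2-week libraries all lay above TAA, while 5-week replicate 27 fell within the TAA range. On library totals the 2-week libraries (145 to 164 CPM) overlapped TAA (128 to 179). The log2 changes against TAA were 0.41 ± 0.16 at 2 weeks (adjusted p = 0.155) and 0.37 ± 0.16 at 5 weeks (adjusted p = 0.237), neither passing edgeR's test. Unlike that of Cpt1a, the Cpt2 estimate hardly separated the rhCYGB groups (-0.04 ± 0.16, edgeR adjusted p = 0.877), and its sign turned on library totals (0.07).

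Among the acyl-CoA dehydrogenases, the short-chain enzyme gene Acads gave the largest change at 2 weeks. It stood at 138, 139 and 153 CPM in TAA, at 233, 234 and 205 CPM at 2 weeks, and at 159, 195 and 164 CPM at 5 weeks. The 3 groups did not overlap on the TMM scale, with TAA lowest, 5 weeks between and 2 weeks highest. On library totals the 5-week libraries (156 to 179 CPM) overlapped TAA (153 to 173). Acads rose by a log2 change of 0.64 ± 0.12 at 2 weeks (edgeR, adjusted p = 0.0299), and the 5-week change of 0.27 ± 0.12 did not pass (adjusted p = 0.262). Between the rhCYGB groups the change was -0.37 ± 0.12 (edgeR, adjusted p = 0.175). The call at 2 weeks was lost without any 1 of replicates 12, 13, 14, 17, 18 and 28, where the change ran from 0.59 to 0.69 and adjusted p from 0.0568 to 0.146 by edgeR. It was kept in 8 of 19 alternatives, among them removal of the length trend (0.53, adjusted p = 0.0198, where 2.57% of all genes were called higher), and it was lost on library totals (0.31, adjusted p = 0.0765).

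Acadvl, the gene of the very long chain enzyme, showed the same order of groups. It stood at 341, 388 and 403 CPM in TAA, at 587, 521 and 525 CPM at 2 weeks, and at 492, 483 and 457 CPM at 5 weeks. Again the groups did not overlap on the TMM scale, and the 2-week libraries were highest. On library totals the 5-week libraries (442 to 481 CPM) overlapped both TAA (377 to 457) and 2 weeks (471 to 506). The log2 change was 0.53 ± 0.11 at 2 weeks (edgeR, adjusted p = 0.0392) and 0.34 ± 0.11 at 5 weeks (adjusted p = 0.147, not called), and between the rhCYGB groups it was -0.19 ± 0.11 (adjusted p = 0.306). The call at 2 weeks was lost without any 1 of the 3 TAA or the 3 2-week libraries and without replicate 28, where edgeR's adjusted p ran from 0.0570 to 0.167. It was kept in 7 of 19 alternatives, and lost on library totals (0.19, adjusted p = 0.223).

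The dehydrogenase genes between them in chain length, Acadm and Acadl, followed another order. Acadm stood at 295, 363 and 291 CPM in TAA, 394, 342 and 410.3 CPM at 2 weeks and 499.6, 383 and 411 CPM at 5 weeks. Acadl stood at 168, 206 and 175 CPM in TAA, 209, 197 and 212 CPM at 2 weeks and 255, 210.5 and 225 CPM at 5 weeks. For both genes TAA overlapped the 2-week libraries and, on the TMM scale, lay below the 5-week libraries, and the highest value was in replicate 23. On library totals TAA overlapped the 5-week libraries too. The ranges there were 326 to 427 and 350 to 489 CPM for Acadm, and 186 to 243 and 193 to 250 CPM for Acadl. At 5 weeks the log2 change was 0.45 ± 0.15 for Acadm (adjusted p = 0.144) and 0.33 ± 0.12 for Acadl (adjusted p = 0.186), and at 2 weeks it was 0.27 ± 0.14 (adjusted p = 0.278) and 0.17 ± 0.12 (adjusted p = 0.424), none passing edgeR's test. The 2-week estimates turned below 0 on library totals, at -0.06 for Acadm and -0.17 for Acadl.

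The trifunctional protein genes ran in parallel. Hadha, the alpha subunit gene, stood at 321, 406 and 351 CPM in TAA, 447, 393 and 407 CPM at 2 weeks and 510.2, 422 and 444 CPM at 5 weeks. Hadhb, the beta subunit gene, stood at 169, 234 and 179.8 CPM in TAA, 234, 176 and 221 CPM at 2 weeks and 307, 228 and 261 CPM at 5 weeks. In both, TAA replicate 13 and 5-week replicate 23 were the highest of their groups, and 2-week replicate 18 was the lowest of its group. On the TMM scale the 5-week libraries lay wholly above TAA for Hadha and overlapped it for Hadhb. On library totals they overlapped TAA for Hadha too (386 to 499 CPM beside 355 to 478 in TAA). The log2 changes were 0.35 ± 0.13 for Hadha (adjusted p = 0.182) and 0.45 ± 0.17 for Hadhb (adjusted p = 0.198) at 5 weeks, and 0.21 ± 0.13 (adjusted p = 0.343) and 0.11 ± 0.17 (adjusted p = 0.709) at 2 weeks, by edgeR. On library totals the 2-week estimates were -0.13 and -0.22. Of the 3 Hadhb transcripts in the annotation, which differ little in length, the main one took 59.6% to 76.7% of the gene's estimated reads and the next 22.5% to 40.4%. Both extremes of these shares were in 2-week libraries (replicates 17 and 18), and in both transcripts the groups overlapped. The third transcript took 1.44% to 2.18% in TAA, 0% to 0.794% at 2 weeks and 0.346% to 1.16% at 5 weeks. These low shares are estimates, and a difference between the groups was not tested.

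Bdh1, the ketone body dehydrogenase gene, had little spread within groups on the TMM scale, and more in FPKM. It stood at 196, 206 and 186 CPM in TAA, at 218, 217 and 221 CPM at 2 weeks, and at 252, 262 and 257 CPM at 5 weeks. The groups did not overlap on the TMM scale and stood in the order TAA, 2 weeks, 5 weeks. The log2 change against TAA was 0.39 ± 0.10 at 5 weeks, a 1.31-fold higher mean, with an adjusted p of 0.0785 by edgeR, the lowest among the 9 members in that comparison. It was called by DESeq2 (0.40, adjusted p = 0.000714) and with the length trend removed (0.41, edgeR adjusted p = 0.0283), where 2.56% of all genes were called higher. At 2 weeks the change was 0.16 ± 0.10 (edgeR, adjusted p = 0.351), and between the rhCYGB groups 0.23 ± 0.10 (adjusted p = 0.201). On library totals the groups overlapped against TAA, with changes of -0.18 at 2 weeks and 0.17 at 5 weeks.

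**Figure D2:**
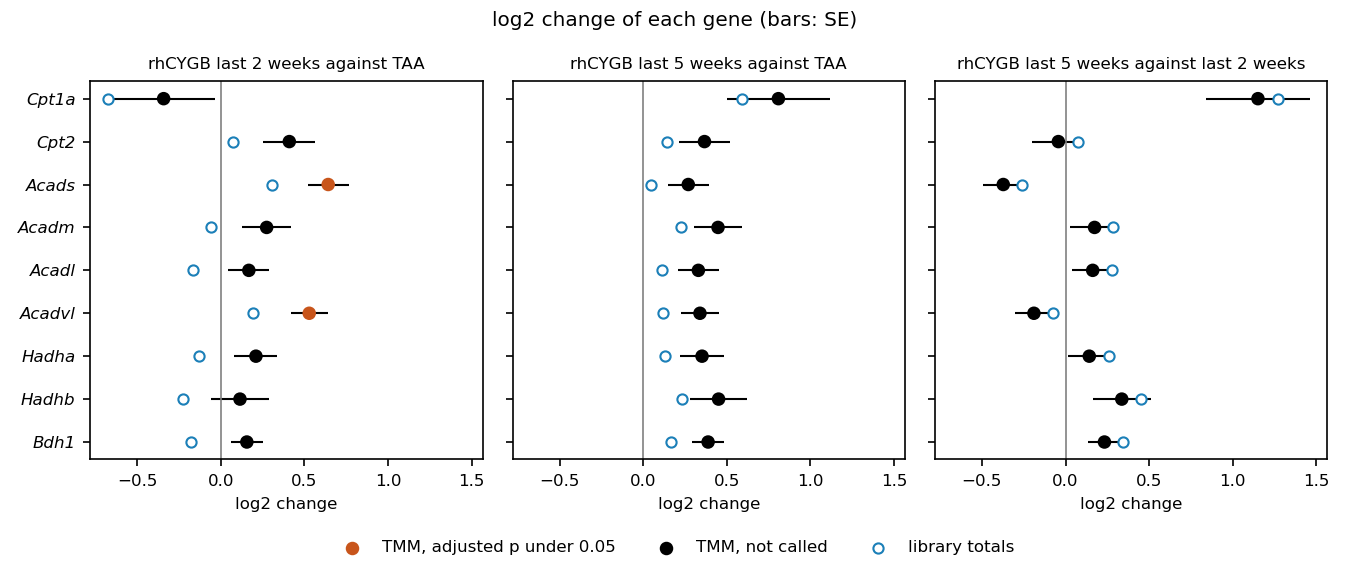
Log2 change of each gene in the 3 comparisons, with bars of 1 SE, for TMM scaling (filled points, orange where the adjusted p was under 0.05) and for library totals (open points). The 2-week estimates of Acads and Acadvl are above 0 on both scales, while Acadm, Acadl, Hadha, Hadhb and Bdh1 change sign between them, as Cpt2 does between the rhCYGB groups.

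To compare the members with each other, levels were read per transcript length as FPKM, which counts fragments per kilobase of transcript and scales them to library depth. Acadvl was highest in every group, at 193 ± 20.5 FPKM (SD, n = 3) in TAA, 221 ± 8.33 at 2 weeks and 209.6 ± 9.53 at 5 weeks. Acadm was next, at 172 ± 28, 165 ± 21.6 and 201 ± 33.1 FPKM, and the ranges of Acadvl and Acadm overlapped in TAA and at 5 weeks but not at 2 weeks. Hadhb, Acadl and Hadha held the middle in TAA at 107, 106 and 105 FPKM, with overlapping ranges. Acads followed at 85.9 ± 5.11 FPKM in TAA, below those 3 genes in each TAA library. At 2 weeks Acads stood at rank 3 with 106 ± 4.55 FPKM, beside 96.2 for Hadha, 94.0 for Acadl and 91.4 for Hadhb. Its range (from 103 FPKM) overlapped that of Acadl (up to 103.5), and in each 2-week library Acads lay above Acadl. At 5 weeks it was again at rank 6, with 88.6 ± 6.07 FPKM.

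The lower end of the order held Bdh1, Cpt2 and Cpt1a in all groups. In TAA they stood at 71.0 ± 5.73, 62.2 ± 11.5 and 52.5 ± 17.9 FPKM, with neighbours overlapping. Cpt1a was wholly below all others at 2 weeks, at 32.8 ± 5.52 FPKM beside 62.8 ± 4.78 for Bdh1. At 5 weeks Cpt1a reached 79.1 ± 34.8 FPKM and overlapped Bdh1 (79.7 ± 4.37) and Cpt2 (68.7 ± 12.8).

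Ratios between members within a library do not depend on how libraries are scaled, but they are not corrected for the length trend given above. Cpt1a, at 4301 bases, is the longest of the 9 members, and the part of length in its ratio was not tested. The ratios were chosen after the values were seen and are given as a description. Cpt1a over the geometric mean of the other 8 members, in FPKM, was 0.501, 0.604 and 0.374 in TAA, 0.277, 0.321 and 0.351 at 2 weeks, and 0.895, 0.417 and 0.685 at 5 weeks. The 3 lowest values were thus the 2-week libraries, and TAA and 5 weeks overlapped. Acads over Acadl was 0.857, 0.700 and 0.912 in TAA, 1.16, 1.24 and 1.01 at 2 weeks, and 0.650, 0.967 and 0.759 at 5 weeks, with the 2-week libraries again apart from both other groups, now on the high side. Acadvl over Acadl followed suit, at 2.20 to 2.51 at 2 weeks, 1.67 to 2.05 in TAA and 1.72 to 2.04 at 5 weeks. Hadhb over Hadha stayed between 0.840 and 1.13 across all 9 libraries, with overlapping groups.

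**Figure D3:**
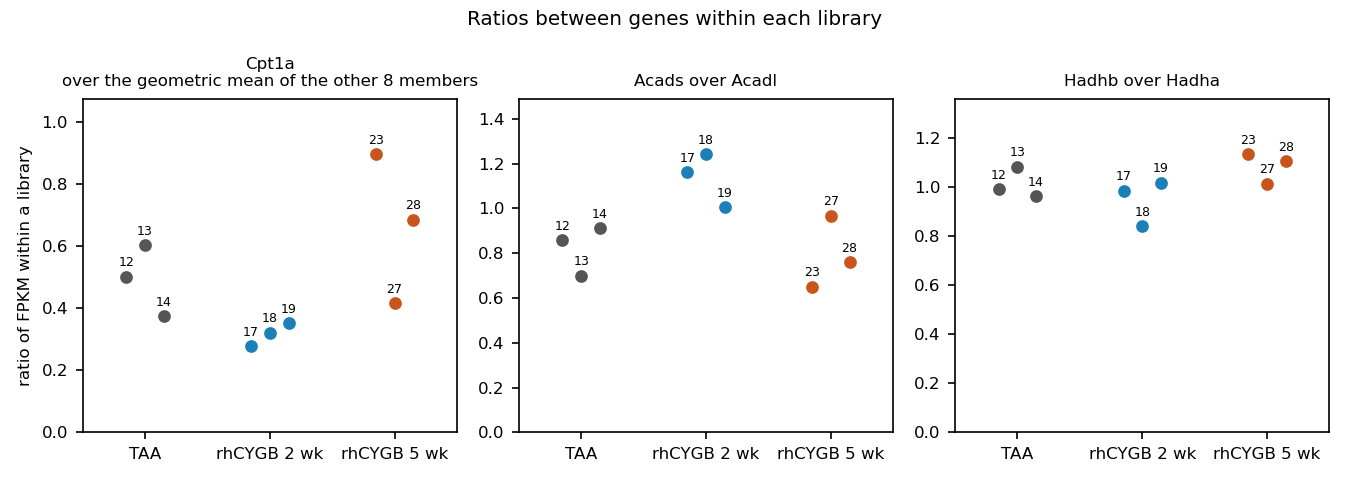
Ratio of FPKM between genes within each library, for Cpt1a over the geometric mean of the other 8 members (left), Acads over Acadl (middle) and Hadhb over Hadha (right), with replicate numbers above the points. The 2-week libraries are lowest on the left (0.277 to 0.351) and highest in the middle (1.01 to 1.24), and the groups overlap on the right.

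Across the 9 libraries the members' log2 CPM varied together to different degrees. Of 36 pairs, 33 had a Pearson's r above 0, with a median of 0.71. The closest pairs were Acadm with Acadl (0.98) and Acadl with Hadha (0.97), and Hadha and Hadhb gave 0.92. Hadha was thus closer to Acadl and to Acadm (0.95) than to Hadhb. Hadhb too was closer to Acadl (0.94) and Acadm (0.93) than to Hadha. Acads was closest to Acadvl (0.89) and had its lowest r with Cpt1a (-0.46), the lowest of all pairs. With group means removed, Acads had a median r of -0.52 with the other members, while Cpt2, Acadm, Acadl, Hadha and Hadhb had medians of 0.78 to 0.90. These values share the libraries, their scaling and the group differences, and carry no test. Within groups the same libraries recurred at the ends: replicate 13 was the highest TAA library for 7 members, replicate 18 the lowest 2-week library for 7, and replicate 23 the highest 5-week library for 7. Replicate 23 was the lowest of its group for the remaining 2, Acads and Bdh1.

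**Figure D4:**
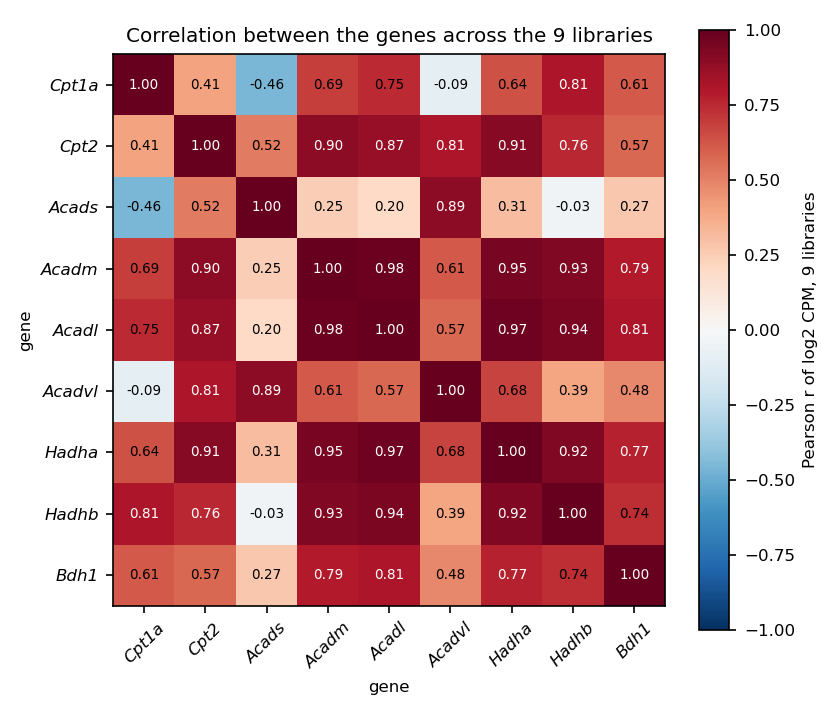
Pearson's r between the log2 CPM of each pair of genes over 9 libraries, from -1 (blue) to 1 (red). Cpt2, Acadm, Acadl, Hadha and Hadhb form a block of values from 0.76 to 0.98, and the Acads row is the palest, with -0.46 against Cpt1a and 0.89 against Acadvl.

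The log2 CPM of the 9 members were averaged after each member was centred on its mean and divided by its SD. The genes most like this average were sought among 12405 other genes by Pearson's r over the 9 libraries. They were Aldh3a2, a fatty aldehyde dehydrogenase gene (r = 0.99), Lonp2, a peroxisomal protease gene (0.99), Slc25a20, the carnitine-acylcarnitine carrier gene (0.98), Acot12, a cytosolic acetyl-CoA hydrolase gene (0.97), and Eva1a (0.97). A search for Cpt1a alone, added after its values were seen, gave, among the closest, Nr1h4, the gene of the bile acid receptor FXR, Rcbtb1, Necap1 and Lmo7, each at 0.99. The genes of both searches had the highest r of 12405 genes over only 9 libraries. They were picked from these same data, and a link to the members was not tested. Nr1h4 stood at 63.8, 112 and 53.8 CPM in TAA, 54.5, 55.2 and 62.3 CPM at 2 weeks and 186, 78.2 and 149 CPM at 5 weeks, the same order of libraries as Cpt1a in the 5-week group.

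Other genes of the pathway were read from lists, by counts and medians. Of all genes 1.98% were called higher and 1.34% lower at 2 weeks, with a median log2 change of -0.03, and 0.686% were called higher at 5 weeks, with a median of 0.01. Of the genes named below as risen or fallen, Oxct1, Acaa1b and Cyp2e1 were also called on library totals. The others lost their calls there, with edgeR adjusted p from 0.0544 (Acaa1a) to 0.289 (Acaa2). Of 14 other mitochondrial beta oxidation genes, 4 rose at 2 weeks, 0 fell and 10 did not pass, and the list's median log2 change was 0.50. The 4 were Eci1 and Eci2, isomerase genes for unsaturated chains (0.75 ± 0.15, adjusted p = 0.0367, and 0.82 ± 0.18, adjusted p = 0.0457), Hadh, the short-chain hydroxyacyl dehydrogenase gene (0.51 ± 0.11, adjusted p = 0.0400), and Acaa2, the thiolase gene (0.50 ± 0.11, adjusted p = 0.0406), all by edgeR. Hadh went from 303, 295 and 287 CPM in TAA to 428, 418 and 413 CPM at 2 weeks. At 5 weeks 0 of the 14 passed edgeR's test, although all 14 estimates were above 0 with a median of 0.40. The median at 2 weeks was 0.16 on library totals and 0.27 with the length trend removed.

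Among 13 genes of fatty acid uptake and activation, 1 rose at 2 weeks and 3 at 5 weeks, and 0 fell. The bile acid and fatty acid ligase gene Slc27a5 rose at both times (0.70 ± 0.14, adjusted p = 0.0337, and 0.77 ± 0.14, adjusted p = 0.0427, edgeR). At 5 weeks Slc27a2, a very long chain acyl-CoA synthetase gene (0.93 ± 0.18, adjusted p = 0.0467), and Acsm3, a medium-chain acyl-CoA synthetase gene (0.94 ± 0.18, adjusted p = 0.0467), rose as well, by edgeR. Of 5 other carnitine shuttle genes, 0 passed edgeR's test in either comparison. The carrier gene Slc25a20 gave 0.35 ± 0.15 at 2 weeks (adjusted p = 0.196) and 0.48 ± 0.15 at 5 weeks (adjusted p = 0.131), and the carnitine transporter gene Slc22a5 gave 0.98 ± 0.26 at 5 weeks (adjusted p = 0.0958).

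The 8 ketone body genes beside Bdh1 had a median log2 change of 0.28 at 2 weeks (-0.06 on library totals) and 0.26 at 5 weeks. Not all of the list passed edgeR's test, and the genes named here passed it at 2 weeks. Sirt3, the gene of a mitochondrial deacetylase, rose at 2 weeks (0.63 ± 0.11, edgeR adjusted p = 0.0267). Oxct1, the gene of the ketone-consuming transferase that hepatocytes largely lack, fell at 2 weeks, from 15.3, 14.7 and 12.6 CPM to 7.03, 9.87 and 7.98 CPM (-0.78 ± 0.17, edgeR adjusted p = 0.0457). At 5 weeks Oxct1 stood at 8.67, 8.0 and 10.8 CPM, wholly below TAA but not called (adjusted p = 0.0974).

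Of 16 regulators of fatty acid oxidation, 1 rose at 2 weeks and 0 were called at 5 weeks. The hepatokine gene Fgf21 rose at 2 weeks from a low level, 0.374, 0.514 and 0.659 CPM in TAA to 1.41, 1.80 and 0.986 CPM (1.43 ± 0.33, edgeR adjusted p = 0.0497). Ppara, the gene of PPAR alpha, stood at 104, 83.5 and 53.9 CPM in TAA, 68.9, 77.8 and 73.1 CPM at 2 weeks and 214, 104 and 149 CPM at 5 weeks. Its 5-week libraries were highest in replicate 23, as for Cpt1a, and its change was 0.95 ± 0.28 against TAA (adjusted p = 0.115) and 1.09 ± 0.28 against 2 weeks (adjusted p = 0.153), neither called by edgeR. Of 14 PPAR alpha targets outside the mitochondrial pathway, 2 rose at 2 weeks and 3 at 5 weeks, with medians of 0.66 and 0.66. On library totals these medians were 0.31 and 0.44. Aldh3a2 rose at 5 weeks (1.36 ± 0.27, edgeR adjusted p = 0.0489). The peroxisomal thiolase genes Acaa1b (1.26 ± 0.14, adjusted p = 0.0138, then 1.04 ± 0.14, adjusted p = 0.0361) and Acaa1a (0.72 ± 0.10, adjusted p = 0.0208, then 0.66 ± 0.10, adjusted p = 0.0361) rose at both times by edgeR, and as near-identical copies they are uncertain as single genes.

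Few genes of the remaining lists passed the test. Of 4 acyl-CoA dehydrogenase genes of amino acid breakdown, Gcdh rose at 2 weeks (0.54 ± 0.11, edgeR adjusted p = 0.0375) and 0 passed at 5 weeks. Of 16 genes of mitochondrial mass, Cox4i1, a respiratory chain subunit gene, rose at 2 weeks (0.69 ± 0.15, edgeR adjusted p = 0.0392), 0 passed at 5 weeks, and the list's medians were 0.24 and 0.24. Between the rhCYGB groups 0 genes of any of these lists passed edgeR's test. The members' medians of 0.21 and 0.37 thus stood beside medians of 0.24 and 0.24 for mitochondrial mass genes. For 11 hepatocyte markers the medians were 0.48 at 2 weeks and 0.20 at 5 weeks. On library totals the medians at 2 and 5 weeks were -0.13 and 0.14 for the members. They were -0.09 and 0.02 for mitochondrial mass genes, and 0.15 and -0.03 for hepatocyte markers. The difference between lists was not tested.

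Cell type markers differed between the groups and are given beside these results. In bulk liver, fewer cells of a type and less RNA per cell cannot be told apart. The summed level of 11 hepatocyte markers was 115207 to 128425 CPM in TAA, 131977 to 169807 CPM at 2 weeks and 129893 to 167214 CPM at 5 weeks on the TMM scale. Of them 0 passed edgeR's test at 2 weeks and 1, Cyp2e1, rose at 5 weeks (1.38 ± 0.21, adjusted p = 0.0361). On library totals the 3 ranges overlapped (135723 to 141989, 127149 to 151270 and 127683 to 153094 CPM). The summed level of 10 stellate cell and myofibroblast markers was 1291 to 1961 CPM in TAA, 472 to 869 CPM at 2 weeks and 333 to 759 CPM at 5 weeks, with 2 of the 10 called at each time, and the TAA range lay above both others on library totals too. Macrophage markers (8 genes) summed to 506 to 562, 443 to 643 and 329 to 440.2 CPM, endothelial markers (6 genes) to 99.2 to 109, 98.5 to 121 and 86.0 to 107 CPM, and cholangiocyte markers (5 genes) to 329 to 535, 271 to 374 and 110.4 to 367 CPM. On library totals the cholangiocyte sums of TAA (387 to 602 CPM) lay above those at 2 weeks (229.9 to 339) and 5 weeks (108 to 379.9). The macrophage and endothelial sums of TAA (596 to 633 and 112 to 128 CPM) lay above those at 5 weeks (322 to 403 and 84.1 to 105) on that scale. Both overlapped those at 2 weeks (374 to 620 and 89.0 to 117 CPM). Markers of T, NK and B cells (7 genes) summed to 5.93 to 9.07 CPM in TAA and 11.8 to 20.9 CPM in the rhCYGB groups. Muscle markers (7 genes, of which 1 passed the filter) reached at most 0.755 CPM, and adipocyte markers (5 genes) at most 10.3 CPM, with Lep at 0 in every library. The part of these shifts in the members' values was not tested.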

How the data were processed

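Reads were aligned to mm10 and assembled with HISAT2 2.1.0 and StringTie 1.3.4d after FastQC 0.11.7, per the submitters' processing notes. The tests used the authors' estimated counts of reads per gene (per the file headers), which are whole numbers, and the step that made them is not given in the sources used here. The authors' FPKM values, per the file headers, served to compare levels between genes and for alternatives. No column of the tables was left unused (0 columns).

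Counts were analysed with edgeR 4.0.16 in R 4.3.3. Genes were kept by filterByExpr (minimum count 10, minimum total 15), scaled by TMM and fitted once over 9 libraries in 3 groups, with 6 residual degrees of freedom and a common biological coefficient of variation of 24.9%. Quasi-likelihood F tests were adjusted by Benjamini-Hochberg over all 14731 genes and called under 0.05. The SE is the log2 change over the square root of F. Alternatives used library totals, upper-quartile scaling, DESeq2 1.42.0, limma 3.58.1 on log2(FPKM + 1) or log2(FPKM + 0.1), other filters, 2 groups at a time, removal of the length trend by loess (span 0.3), and each library left out. One more, chosen after seeing the data, left out replicates 17, 18 and 23 together. The scripts were tested on simulated data.

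The members and the gene lists were chosen with earlier results of these data known. Beyond the members, the rule for named genes took from each list up to 4 called genes (otherwise the gene with the lowest p), always Ppara, Ppargc1a, Slc25a20 and Hadh, and the 5 genes of at least 1 CPM most like the members by Pearson's r. Some genes that these rules take are not reported here. Of 12 hepatocyte markers, 11 were matched.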

Additional observations from a re-analysis of the deposited data

How the results depend on the processing

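The 9 members gave 513 values under alternative settings, of which 462 kept their direction and side of the threshold, 23 lost a call, 5 gained one and 23 turned sign. For the other named genes, 312 of 570 values were kept, 243 lost a call, 9 gained one and 6 turned sign. The number of calls moved in all 3 comparisons. At 2 weeks 488 genes became 1722 on library totals, 1670 with DESeq2, 1983 and 1639 with limma on log2(FPKM + 1) and log2(FPKM + 0.1), 1023 with 2 groups in the fit, and 12 without replicates 17, 18 and 23. Leaving out 1 library gave 1 to 1095 genes. The 2 members called at 2 weeks became 0 on library totals, upper quartiles, both limma settings and without those 3 libraries, and 0 to 2 when 1 library was left out. At 5 weeks 190 genes became 504 on library totals, 77 on upper quartiles, 1132 with DESeq2, 105 with no filter, 1001 and 693 with limma, 1 with 2 groups, 602 with the length trend removed and 7 without replicates 17, 18 and 23, and leaving out 1 library gave 0 to 240. Members called at 5 weeks went from 0 to 1 with DESeq2 and to 1 with the length trend removed. For 5 against 2 weeks, 3 genes became 770 with DESeq2, 5 with log2(FPKM + 1), 0 with 2 groups, 6 with the length trend removed, 5 without replicates 17, 18 and 23, and 1 to 1889 when 1 library was left out. Members called there went from 0 to 1 with DESeq2 and 0 to 2 when 1 library was left out. The cause was not tested.

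Signs turned at 2 weeks on library totals, log2(FPKM + 1) and log2(FPKM + 0.1), in that order, for Acadm (-0.059, -0.058 and -0.058), Acadl (-0.17, -0.16 and -0.16), Hadha (-0.13, -0.12 and -0.12), Hadhb (-0.22, -0.21 and -0.22), Bdh1 (-0.18, -0.18 and -0.18) and Ppargc1a (-0.17, -0.073 and -0.15). FPKM too are scaled to library depth, so these 3 settings share 1 choice of scaling and are not separate checks. In each of them 6 values of the members turned sign. Leaving out 1 library gave -0.043 (without replicate 14) to 0.33 for Ppargc1a and -0.36 to 0.083 (without replicate 12) for Ppara, which was 0.13 with the length trend removed. For 5 against 2 weeks, Cpt2 was 0.074, 0.060 and 0.060 on those 3 scales, 0.011 with the length trend removed, and -0.19 to 0.046 when 1 library was left out, above 0 without replicate 17, 27 or 28. Acadm there was -0.047 without replicates 17, 18 and 23. The rank of the members by level per length was the same for all 9 in each group with CPM per kilobase in place of FPKM. No paired analysis was possible because the groups share no replicate number.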
